A study of Homo sapiens with 6 samples.

Results

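Methyl-CpG binding proteins and their relatives read the methylation that DNA methyltransferases write. MBD1, MBD2, MBD3 and MBD4 carry a methyl-CpG binding domain, ZBTB33 (Kaiso), ZBTB4 and ZBTB38 bind methylated DNA through zinc fingers, and UHRF1 and UHRF2 carry an SRA domain that holds a flipped-out methylated cytosine. Most of these readers recruit histone deacetylase or methyltransferase complexes that repress transcription, whereas UHRF1 brings DNMT1 to hemimethylated DNA after replication. The family was taken as these 9 genes by name, and every probe that the platform annotation assigns to one of them was kept separately. This gave 14 probes of 8 genes, out of 47231 probes and 20046 named genes on the array. No probe carried the symbol MBD3 in the annotation used, so that MBD3 was not analysed here.

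The samples were RUNX1-overexpressing HEK-293T cells and MCS-transduced HEK-293T cells, with 3 arrays each. HEK-293T is a human embryonic kidney line that carries the SV40 large T antigen. Both groups had received lentivirus and puromycin selection, the RUNX1 cells a construct for RUNX1, a transcription factor of blood development, and the MCS cells the control construct. RNA was hybridised to Illumina HT-12 v4 BeadChips. With them the study compared, between the RUNX1 and MCS cells, the expression of genes for enzymes that act in adding or removing DNA methylation. An intensity below is the BeadStudio signal without background correction, and an expression value is the log2 value after background correction and quantile normalization. A probe counted as detected on an array at a detection p under 0.05, and a probe detected on 3 or more of the 6 arrays was tested. The test thus covered 18867 probes, 11 of them of the family, and the 6 arrays limit the precision. The study describes the arrays as biological triplicates, while the labels give only replicate numbers.

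The arrays did not group by transduction. The first principal component of the tested probes held 62.2% of the variance and set RUNX1 replicates 1 and 2 and MCS replicate 1 (scores of -26.7, -27.4 and -32.5) on one side and RUNX1 replicate 3 and MCS replicates 2 and 3 (33.9, 18.8 and 33.9) on the other. The transduced gene was detected in 1 of 18 signals of its 3 probes and in 0 of those on the RUNX1 arrays, so the arrays do not check the labels. Each side of the component held 2 arrays of one group and 1 of the other, and the labels of RUNX1 replicate 3 and MCS replicate 1, the arrays apart from their groups, were taken as given. Every difference below follows the labels. Of 9 kidney, neuronal and epithelial genes listed for HEK-293T cells, 6 were detected on all 6 arrays and 1, PAX2, on none. Of 7 blood genes, PTPRC, SPI1, ITGAM and GATA1 were detected on no array with any probe, while a CD14 probe and a CD79A probe were detected on all 6. Over the brightest probe of each gene, the summed intensity ran from 8866 to 9826 on the RUNX1 arrays and from 10029 to 12605 on the MCS arrays for that list, from 867 to 914 and from 886 to 926 for the blood list, and from 678 to 989 and from 679 to 986 for 6 fibroblast genes. These sums are of intensities before normalization. The upper quartile over all probes ran from 184 to 208 on the RUNX1 arrays and from 202 to 221 on the MCS arrays, so that these ranges overlapped. After normalization none of the tested probes of these genes passed the test. The part of the differences in the sums, and of the separation of the arrays, in the results was not tested. In bulk RNA, fewer cells with a transcript and less of it per cell cannot be told apart.

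The expression of these readers did not pass the test for a difference in any direction: for each of the 11 tested probes the adjusted p from limma, taken over all probes, was 1.00. Over the whole array, 0 of 18867 probes passed (0%), and 550 (2.92%) had an unadjusted p under 0.05, against 0 of the 11. The methods' t-test gave 717 probes (3.80%) unadjusted and 0 after Benjamini-Hochberg adjustment. The log2 differences of the family, RUNX1 minus MCS, had a median of -0.015, with 4 above and 7 below 0, beside a median of 0.0020 over all tested probes. The 95% confidence interval stayed within a 2-fold change in either direction for 8 of the 11 probes and reached past it for 3. The plot of log2 differences gives all 11.

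**Figure D1:**
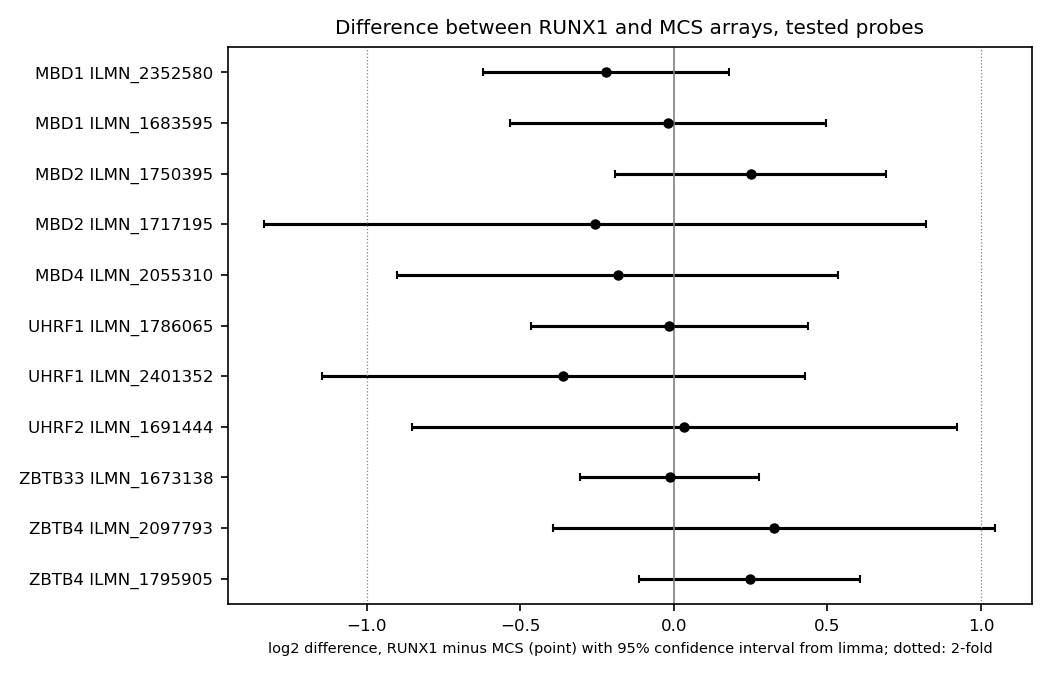
Log2 difference of each tested probe, RUNX1 minus MCS (horizontal axis), with its 95% confidence interval from limma (bars) and dotted lines at a 2-fold change, for 3 arrays per group. All 11 intervals include 0, and those of MBD2 ILMN_1717195, UHRF1 ILMN_2401352 and ZBTB4 ILMN_2097793 reach beyond 2-fold on one side.

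UHRF1 and UHRF2 are large multidomain proteins with a RING finger that ubiquitinates histone H3. UHRF1 is required for maintenance methylation and is most abundant in dividing cells, while UHRF2 is its paralogue, known to bind 5-hydroxymethylcytosine and unable to replace UHRF1 in maintenance. The UHRF1 probe annotated to NM_001048201 (ILMN_1786065) had intensities of 1726, 1432 and 1113 on RUNX1 replicates 1 to 3, and of 2005, 1529 and 1319 on MCS replicates 1 to 3. Its expression values were 10.64, 10.54 and 10.20 with RUNX1, against 10.80, 10.32 and 10.31 with MCS. The groups overlapped, with the lowest value in the RUNX1 group and the highest in the MCS group. The means were 10.46 ± 0.227 for the RUNX1 arrays and 10.47 ± 0.279 for the MCS arrays (SD, n = 3 each). The log2 difference was -0.015 (95% confidence interval -0.47 to 0.44), which corresponds to a fold change between 0.724 and 1.35. It turned to 0.11 without RUNX1 replicate 3 and to 0.15 without MCS replicate 1. Between RUNX1 replicates 1 and 2 and MCS replicate 1, on one side of the first principal component, it was -0.21. Between RUNX1 replicate 3 and MCS replicates 2 and 3, on the other side, it was -0.11, both as values without a test.

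The second UHRF1 probe, annotated to NM_013282 (ILMN_2401352), was near background. Its intensities were 137, 133 and 88.5 with RUNX1, against 164, 134 and 122 with MCS, and it was detected on 2 of 3 arrays in each group. RUNX1 replicate 3 was the dimmest array for this probe too, at a detection p of 0.748. The expression values of 5.76, 5.70 and 4.68 with RUNX1 and 6.20, 5.63 and 5.39 with MCS gave a log2 difference of -0.36 (-1.14 to 0.43). Without RUNX1 replicate 3 it was -0.0076 and without MCS replicate 1 it was -0.13, and without each of the other arrays it lay between -0.41 and -0.55.

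UHRF2 was measured by 1 probe (ILMN_1691444), detected on all 6 arrays. Its intensities were 192, 171 and 257 with RUNX1, against 171, 252 and 245 with MCS. In expression values this was 6.71, 6.54 and 7.72 with RUNX1, against 6.32, 7.20 and 7.35 with MCS. The highest UHRF2 value stood on RUNX1 replicate 3, the array with the lowest UHRF1 value, and the lowest on MCS replicate 1, the array with the highest UHRF1 value. The group means of 6.99 ± 0.640 with RUNX1 and 6.96 ± 0.559 with MCS (SD, n = 3 each) differed by 0.034 (-0.85 to 0.92). The sign turned without RUNX1 replicate 3 (-0.33) and without MCS replicate 1 (-0.29). Within the sides of the first principal component it did not turn. UHRF2 differed by 0.31 between RUNX1 replicates 1 and 2 and MCS replicate 1. Between RUNX1 replicate 3 and MCS replicates 2 and 3 it differed by 0.45, both as values without a test.

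MBD4 is the glycosylase of the family, which removes thymine or uracil mispaired with guanine at CpG sites, where deamination of methylated cytosine leaves thymine. Its single probe (ILMN_2055310) had intensities of 694, 560 and 866 with RUNX1, against 617, 1083 and 1004 with MCS. The expression values were 9.20, 9.03 and 9.83 with RUNX1, against 8.94, 9.78 and 9.88 with MCS. Each group held arrays from both ends of this range. The means were 9.35 ± 0.420 with RUNX1 and 9.54 ± 0.519 with MCS (SD, n = 3 each), a log2 difference of -0.18 (-0.90 to 0.53). With 1 array left out at a time it lay between -0.48 and -0.0084. Between RUNX1 replicates 1 and 2 and MCS replicate 1, which lay on one side of the first principal component, MBD4 differed by 0.17, and between RUNX1 replicate 3 and MCS replicates 2 and 3 it differed by -0.0057, as values without a test.

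MBD1 recruits the histone methyltransferase SETDB1 through ATF7IP. The probe annotated to NM_015844 (ILMN_2352580) had intensities of 193, 181 and 174 with RUNX1, against 254, 205 and 195 with MCS. Its expression values were 6.72, 6.71 and 6.75 with RUNX1, against 7.28, 6.74 and 6.82 with MCS. The RUNX1 arrays lay close together, and MCS replicate 1 stood above the other 5. The log2 difference of -0.22 (-0.62 to 0.18) was -0.056 without MCS replicate 1. The probe annotated to NM_015845 (ILMN_1683595) was at 6.81, 6.72 and 6.26 with RUNX1, against 6.99, 6.39 and 6.47 with MCS, a difference of -0.020 (-0.53 to 0.50). Here the lowest array was RUNX1 replicate 3 and the highest again MCS replicate 1. The difference turned to 0.15 without the first and to 0.17 without the second. RUNX1 replicates 1 and 2 differed from MCS replicate 1 by -0.22 for this probe. RUNX1 replicate 3 differed from MCS replicates 2 and 3 by -0.17, both as values without a test.

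MBD2 joins the NuRD complex, a histone deacetylase and nucleosome remodeller, in which MBD3 is the alternative subunit. Of its 4 probes, 2 passed the filter and 2 (ILMN_2387452 and ILMN_1785587) were detected on no array, with intensities between 67.6 and 108. The probe detected throughout, annotated to NM_003927 (ILMN_1750395), had intensities of 163, 157 and 161 with RUNX1, against 181, 150 and 143 with MCS. Its expression values were 6.28, 6.29 and 6.53 with RUNX1, against 6.48, 5.96 and 5.91 with MCS. Only MCS replicate 1 overlapped with the RUNX1 arrays. The means of 6.37 ± 0.139 with RUNX1 and 6.12 ± 0.316 with MCS (SD, n = 3 each) differed by 0.25 (-0.19 to 0.69). The difference of RUNX1 replicates 1 and 2 from MCS replicate 1 was -0.19, and that of RUNX1 replicate 3 from MCS replicates 2 and 3 was 0.59, so the sides of the first principal component gave opposite signs. The difference was 0.43 without MCS replicate 1 (unadjusted p = 0.0272, adjusted p = 0.627 from limma) and 0.15 without MCS replicate 3.

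The other tested MBD2 probe is annotated to NM_015832 (ILMN_1717195). Its intensities were 112, 102 and 150 with RUNX1, against 102, 144 and 163 with MCS, and it was detected on 3 arrays, RUNX1 replicate 3 and replicates 2 and 3 of MCS. Its expression values of 5.14, 4.87 and 6.26 with RUNX1 and 4.87, 5.83 and 6.34 with MCS spanned 1.47, the widest range of the family after that of the second UHRF1 probe. The log2 difference was -0.26 (-1.33 to 0.82), opposite in sign to that of the NM_003927 probe, and it turned to 0.018 without RUNX1 replicate 2 and to 0.074 without MCS replicate 3. Of the arrays that detected the probe, RUNX1 replicate 3 differed from MCS replicates 2 and 3 by 0.17, as a value without a test. The negative sign thus depended on arrays that did not detect the probe, where its value is only an upper limit.

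The zinc finger readers share a BTB domain, with which they bind corepressors. ZBTB33 (Kaiso; ILMN_1673138) had intensities of 4158, 3432 and 3459 with RUNX1, against 4214, 4261 and 3947 with MCS. After normalization the values were 11.98, 11.87 and 11.83 with RUNX1, against 11.93, 11.85 and 11.95 with MCS, a range of 0.15 over the 6 arrays. The groups interleaved, and the log2 difference was -0.014 (-0.31 to 0.28), which gives the narrowest interval of the 11 probes, with fold changes of 0.809 to 1.21. Its sign turned without RUNX1 replicate 3 (0.018) and without MCS replicate 3 (0.0051).

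ZBTB4, which can bind both methylated and unmethylated sites, had 2 tested probes annotated to the same transcript. The first (ILMN_2097793) had intensities of 632, 537 and 300 with RUNX1, against 559, 425 and 344 with MCS. Its expression values were 9.04, 8.96 and 8.04 with RUNX1, against 8.77, 8.21 and 8.07 with MCS. RUNX1 replicates 1 and 2 were the highest arrays and RUNX1 replicate 3 the lowest, so that the MCS arrays fell inside the range of the RUNX1 arrays. The means of 8.68 ± 0.557 with RUNX1 and 8.35 ± 0.371 with MCS (SD, n = 3 each) differed by 0.33 (-0.39 to 1.05), but single arrays moved this widely. It was 0.65 with RUNX1 replicate 3 left out and 0.54 with MCS replicate 1 left out, against 0.15 and 0.19 when RUNX1 replicate 1 or 2 was dropped and 0.19 when MCS replicate 3 was. This probe passed the test in 1 alternative, added after the data were seen (0.70, adjusted p = 0.0459 from limma, with 897 of 11129 genes called). There each gene was taken by its brightest probe, and each array was weighted by its scatter around the mean of its labelled group. Arrays that depart from their group thus counted less, so this pass is no independent support for a difference. The weight of RUNX1 replicate 3 was then 0.279 and that of MCS replicate 1 was 0.314.

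For the second ZBTB4 probe (ILMN_1795905) the groups did not overlap. Its intensities were 145, 133 and 133 with RUNX1, against 124, 135 and 133 with MCS, near background, and MCS replicate 1 was not detected. The expression values were 5.95, 5.69 and 5.79 with RUNX1, against 5.34, 5.66 and 5.68 with MCS, so that the gap between the groups was small. It was the only one of the 11 probes whose RUNX1 values all lay above the MCS values, beside 3.47% of all tested probes, and 0 had all RUNX1 values below, beside 4.04%. In either direction this is 1 of the 11, beside 7.51% of all. The log2 difference was 0.25 (-0.11 to 0.61), with an unadjusted p of 0.150 from limma, the smallest of the family. Without MCS replicate 1, where the probe was not detected, the difference was 0.14.

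ZBTB38 was not tested. Its probe (ILMN_2248863) had intensities of 115, 119 and 112 with RUNX1, against 126, 146 and 125 with MCS, and was detected on 0 of 3 RUNX1 arrays and on 1 of 3 MCS arrays, replicate 2. The values on the other 5 arrays are only upper limits, and no fold change is given.

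**Figure D2:**
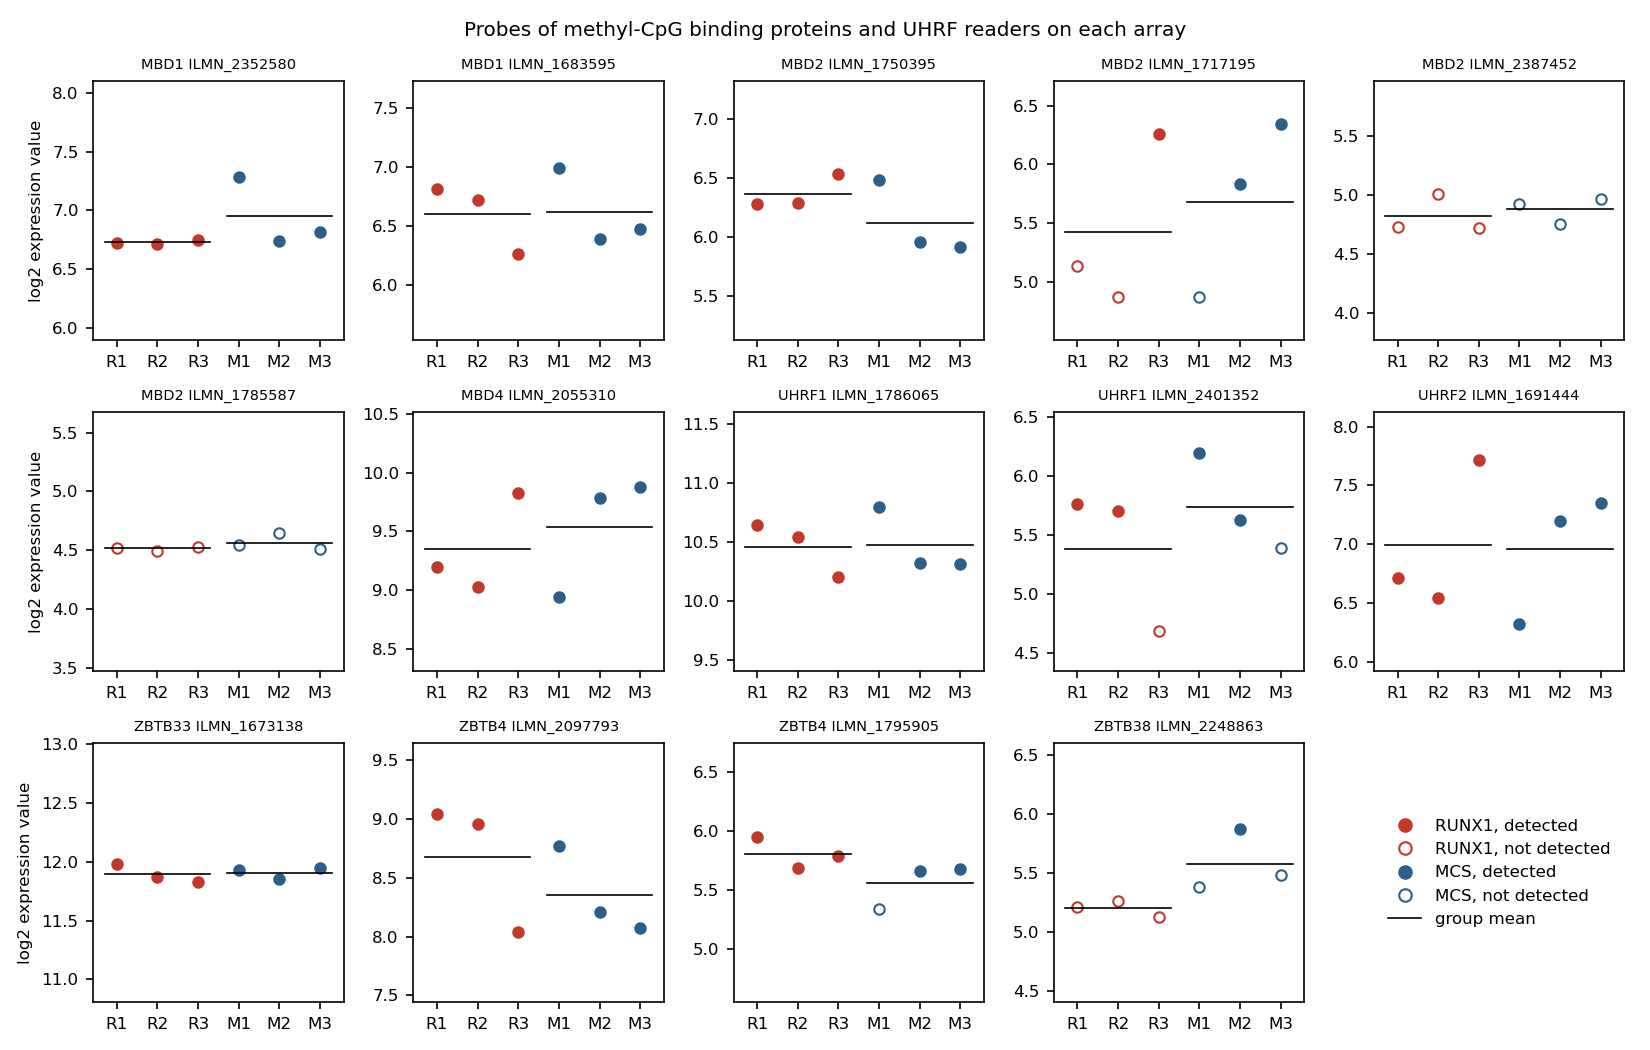
Log2 expression value (vertical axis, the same span in each panel) of each of the 14 probes on RUNX1 replicates 1 to 3 (R1 to R3) and MCS replicates 1 to 3 (M1 to M3). Filled points were detected at a p under 0.05, open points were not, and lines are group means; MBD4 and UHRF2 are high on R3, M2 and M3, while UHRF1 and ZBTB4 ILMN_2097793 are low there.

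Within the family, most of the spread lay among arrays of the same transduction. Over the 8 family probes detected on all 6 arrays the range across arrays had a median of 0.67, beside 0.54 for all 15333 such probes. MBD4 and UHRF2 were higher on each of RUNX1 replicate 3 and MCS replicates 2 and 3 than on each of the other 3 arrays, by a gap of 0.58 and 0.49. UHRF1 ILMN_1786065, the NM_015845 probe of MBD1 and ZBTB4 ILMN_2097793 were lower on each of them, by a gap of 0.22, 0.25 and 0.56. These 2 and 3 of the 8 probes stand beside 21.5% and 22.6% of all probes detected on all 6 arrays. Of the tested probes that were not detected on every array, MBD2 ILMN_1717195 was detected only on the arrays where it was high, so its gap is not given, and UHRF1 ILMN_2401352 was low on the same arrays as ILMN_1786065. The remaining 4 probes, among them that of ZBTB33, did neither. This division of the arrays was read from the data and crosses the transduction, so these values are given as a description without a test, and what distinguishes the arrays was not tested.

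**Figure D3:**
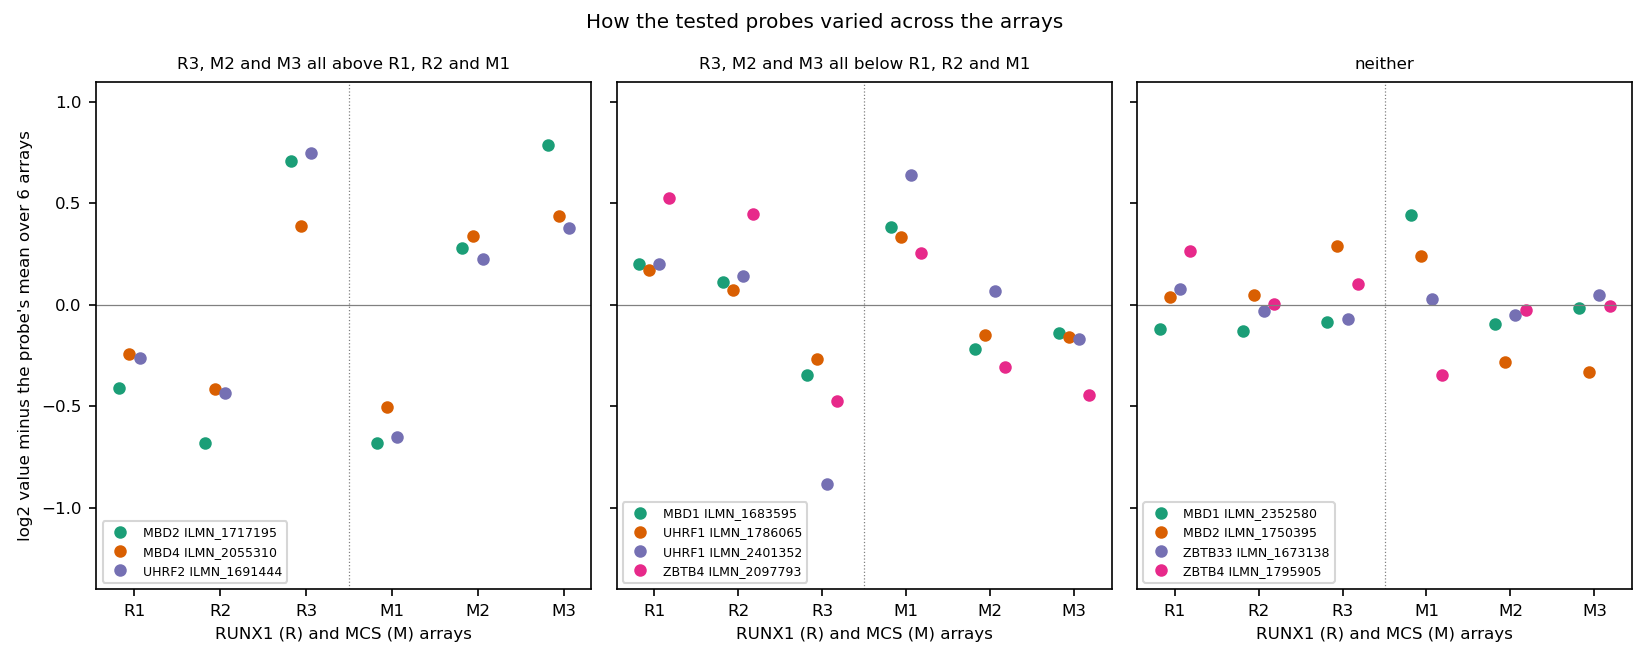
Deviation of each tested probe from its own mean over 6 arrays (vertical axis, log2) on the RUNX1 (R) and MCS (M) arrays, shown for the 3 probes high on R3, M2 and M3 (MBD2 ILMN_1717195 was detected on those alone), the 4 probes low on them, and the 4 others. UHRF1 ILMN_1786065 and UHRF2 deviate in opposite directions on each array.

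The gene whose brightest tested probe followed UHRF1 most closely over the 6 arrays was POLR2L, a small subunit shared by the nuclear RNA polymerases (Pearson r = 0.999), followed by EIF4A1, a helicase of translation initiation (0.998), and SCARNA13, a Cajal body RNA (0.997). POLR2L had values of 6.82, 6.68 and 5.81 with RUNX1, against 7.22, 6.11 and 6.09 with MCS. With 6 arrays on the 2 sides named above, 839 of 11128 other genes had an r over 0.9 with UHRF1, so the order among them carries little information and no p is given.

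The sequences in front of 4 genes are shown, UHRF1 and UHRF2 as the paralogues that ran opposite ways across the arrays, and MBD4 and ZBTB4 for the widest gap in each direction among the probes detected throughout. They are the 250 bases before the annotated start from RefSeq (GRCh38.p14), 5′ to 3′ on the strand of the gene, with every CpG dinucleotide in capitals. UHRF1 lies at chr19:4909251-4909500 on the plus strand (the first of its 3 annotated starts), UHRF2 at chr9:6412949-6413198 on the plus strand, MBD4 at chr3:129439949-129440198 on the minus strand and ZBTB4 at chr17:7484250-7484499 on the minus strand.
UHRF1: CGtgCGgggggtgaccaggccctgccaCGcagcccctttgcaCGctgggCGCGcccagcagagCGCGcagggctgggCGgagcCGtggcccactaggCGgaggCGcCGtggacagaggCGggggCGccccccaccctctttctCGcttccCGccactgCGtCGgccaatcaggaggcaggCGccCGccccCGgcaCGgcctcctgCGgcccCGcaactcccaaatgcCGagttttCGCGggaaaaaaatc
UHRF2: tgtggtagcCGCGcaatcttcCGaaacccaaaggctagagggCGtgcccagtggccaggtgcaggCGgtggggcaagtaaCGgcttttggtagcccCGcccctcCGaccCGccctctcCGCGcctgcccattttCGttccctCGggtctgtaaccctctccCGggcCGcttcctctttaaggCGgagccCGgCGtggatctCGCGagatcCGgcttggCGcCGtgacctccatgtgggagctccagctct
MBD4: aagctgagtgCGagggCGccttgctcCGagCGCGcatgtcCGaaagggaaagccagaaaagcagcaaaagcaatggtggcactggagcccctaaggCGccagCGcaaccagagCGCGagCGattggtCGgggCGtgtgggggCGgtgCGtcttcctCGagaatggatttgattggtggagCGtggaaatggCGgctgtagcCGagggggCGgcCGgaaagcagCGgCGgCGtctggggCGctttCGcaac
ZBTB4: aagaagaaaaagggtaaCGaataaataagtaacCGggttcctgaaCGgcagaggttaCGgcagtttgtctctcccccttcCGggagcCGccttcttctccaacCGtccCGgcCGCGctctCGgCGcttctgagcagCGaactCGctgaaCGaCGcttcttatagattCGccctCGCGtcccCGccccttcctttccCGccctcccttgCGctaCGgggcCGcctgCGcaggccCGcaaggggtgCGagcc
The printed stretches hold 28 CpGs for UHRF1, 23 for UHRF2, 26 for MBD4 and 27 for ZBTB4. Of the 4, UHRF1 has the most CpGs here and UHRF2 the fewest. A relation of CpG number to the array values was not tested.

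Over windows of 300 bases, from 250 before to 50 after the start, all 35116 RefSeq windows had a median of 14 CpGs, with quartiles of 4 and 28. MBD1 had 27, MBD2 32, MBD3 40, MBD4 29, UHRF2 26, ZBTB33 33 and ZBTB4 31, and the 3 windows of UHRF1 had 36 to 46. The 10 windows of ZBTB38 ran from 0 to 35. The RUNX motif TGTGGT, searched on both strands with no other motif, was in 4 of the 20 windows (20.0%), beside 13.1% of all windows. They were the window of MBD2, at position -209 from the start, that of UHRF2, at its first base (-250), and 2 of ZBTB38. As 10 of the 20 windows are starts of ZBTB38 alone, the share is one of windows and not of genes. A match is a string of letters and not a site, and methylation of these promoters was not measured by the arrays.

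**Figure D4:**
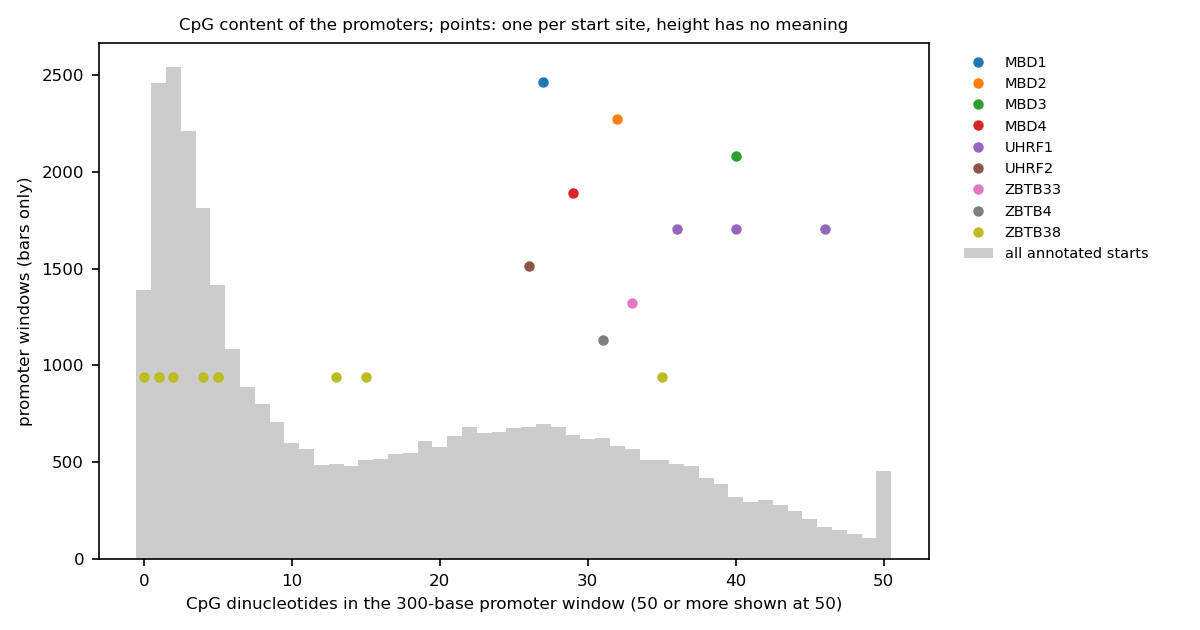
Number of CpG dinucleotides in 300-base promoter windows (horizontal axis), for all 35116 annotated starts (bars, number of windows) and for each start of the 9 genes (points, whose height has no meaning). The points of MBD1, MBD2, MBD3, MBD4, UHRF1, UHRF2, ZBTB33 and ZBTB4 lie at 26 or more CpGs, above the median of 14, while those of ZBTB38 run from 0 to 35.

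The partners of these readers were examined as a further 49 genes in 7 lists, of which 45 had a named probe and 41 were tested with 56 probes. With limma and adjustment over all probes, 0 were higher and 0 lower, and 0 of the 56 had an unadjusted p under 0.05. The log2 differences lay between -0.37 and 0.43, and their median was 0.0099. The RUNX1 values lay entirely below the MCS values for 2 probes and above them for 0, beside 4.04% and 3.47% of all tested probes. For each list the 2 probes with the smallest p-values were looked at.

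Of the NuRD subunits, 14 probes of 11 genes had a median difference of -0.042. RBBP4, a histone chaperone, was at 6.87, 6.85 and 6.62 with RUNX1, against 6.91, 6.93 and 7.43 with MCS (ILMN_1653514, difference -0.31, -0.74 to 0.12). The groups did not overlap, with MCS replicate 3 well above the other 5 arrays and the rest close together. CDK2AP1, a small subunit, had a difference of 0.26 (-0.34 to 0.85), and was called in the weighted alternative (0.58, adjusted p = 0.0469 from limma). Of the MBD1 partners, SUV39H1 and SETDB1, both histone H3 lysine methyltransferases, had differences of 0.16 (-0.17 to 0.48) and -0.17 (-0.55 to 0.21).

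The UHRF1 partners in maintenance methylation were represented by 13 tested probes of 7 genes, with a median difference of -0.062. CDCA7, which recruits the remodeller HELLS, had the lowest difference of all partners for the probe ILMN_1762142 (-0.37, -0.85 to 0.11). This probe was near background, with intensities of 116 to 153, and was detected on 1 of 3 RUNX1 arrays and on 3 of 3 MCS arrays. The CDCA7 probe ILMN_1737184, detected on all 6 arrays, had a difference of -0.14 (-0.84 to 0.56). LIG1, the replicative DNA ligase that UHRF1 binds, was at 8.92, 9.03 and 9.05 with RUNX1, against 9.01, 9.21 and 9.34 with MCS (-0.19, -0.52 to 0.14). Of these 13 probes, 6 were higher on each of RUNX1 replicate 3 and MCS replicates 2 and 3 than on each of the other arrays. None was lower on each, and the shares over all tested probes were 19.5% higher and 21.5% lower. Over all 56 partner probes 11 were higher and 12 lower on each, and of the 14 NuRD probes 3 were higher and 5 lower. Among the UHRF1 partners the other CDCA7 probe (ILMN_1737184) had the widest gap, 0.47, at 11.95, 11.77 and 12.57 with RUNX1, against 11.67, 12.41 and 12.62 with MCS. The gaps of the rest of the 6 probes were smaller, from 0.020 for LIG1 to 0.12 for PCLAF ILMN_2412521. The 6 included both PCNA ILMN_1706958 and PCNA ILMN_1694177, so they are not 6 separate genes. CDCA7 ILMN_1762142, PCNA ILMN_1685682, PCLAF ILMN_2285996 and PCLAF ILMN_1732150 were not among the 6, although another probe of each gene was.

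Of the corepressors of the zinc finger readers, 9 probes of 6 genes had a median of -0.10. The 2 probes of CTBP1, a corepressor that ZBTB38 binds, had differences of -0.26 (-0.64 to 0.12) and -0.22 (-0.58 to 0.14). TDG, the other glycosylase for mispaired thymine, had 0.13 (-0.20 to 0.46) and 0.062 (-0.23 to 0.35). Among other proteins with a methyl-CpG binding domain, BAZ2A, the large subunit of the nucleolar remodeller NoRC, was at 5.56, 5.55 and 5.42 with RUNX1, against 5.97, 5.79 and 5.60 with MCS (-0.28, -0.62 to 0.065), near background but without overlap, and MBD6 had 0.13 (-0.25 to 0.51). Of the CXXC proteins, which read unmethylated CpGs, CXXC5 had the highest difference of all partners, at 8.95, 8.91 and 8.24 with RUNX1, against 8.46, 8.12 and 8.22 with MCS (0.43, -0.078 to 0.95), and KMT2A, a histone H3 lysine 4 methyltransferase, had -0.23 (-0.75 to 0.29). None of these passed the test.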

How the data were processed

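The authors amplified total RNA of transduced HEK-293T cells, hybridised it to Human HT-12 v4 BeadChips and read the chips with BeadScan and BeadStudio. The deposited intensities per probe, neither background-corrected nor normalized, stand beside a deposited detection p-value per array, in steps of 1 in 770. The authors' processed values, treated here as deposited log2 values, were made with lumi (its version not given in the sources used here). Each of their columns had a median of 7.19, and their background step is not given. The intensities were background-corrected and quantile-normalized by neqc (limma 3.58.1, R 4.3.3, offset 16). Gene symbols came from the platform annotation, where 30113 of 47231 probes had 1, 8 had several and 17110 were unnamed here. Every probe with a detection p below 0.05 on 3 or more arrays was fitted with lmFit and eBayes on the transduction without a covariate, with Benjamini-Hochberg adjustment over 18867 probes.

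The arrays were grouped by the sample titles. Between 18096 and 19321 probes were detected on an array. Chip and position are not given in the labels, and no batch was tested. Genes are reported by probe, and probe sequences were not used. Named were all family probes and, per partner list, the 2 tested probes with the smallest p; the CDCA7 probe ILMN_1737184 was named after its values were seen. The members, lists and tests were chosen with earlier results of these data known. Of the listed partner and marker genes, those without a named probe are not reported. Alternatives were other background corrections, normalizations and filters, the authors' log2 values, 1 probe per gene, a replicate block, a trended prior, weighting of arrays, the methods' t-test, and each array left out.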

Additional observations from a re-analysis of the deposited data

How the results depend on the processing

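The count of 0 probes called, 0 of the family and 0 of the partners, held under 18 of 19 alternatives, those leaving out an array (0 to 0) included. Limma's array weights on the brightest probe of each gene, an alternative added after the data were seen, called 897 of 11129 genes, of them 1 family gene (ZBTB4, 0.70, adjusted p = 0.0459 from limma) and 1 partner (CDK2AP1, 0.58, adjusted p = 0.0469). With weights on all 18867 probes 0 were called, with a smallest adjusted p of 0.0705. In that fit the smallest weights went to RUNX1 replicate 3 (0.308) and to MCS replicate 1 (0.347). In either weighted fit the weights came from the scatter around the labelled group means, so the calls are no independent support for a difference. The difference reversed with weights for MBD1 ILMN_1683595 (0.27), both UHRF1 probes (0.20 and 0.0081), UHRF2 (-0.47) and ZBTB33 (0.034), and for UHRF2 also without quantile normalization (-0.19). With 1 array left out, the differences that changed sign ran from -0.13 to 0.17 for MBD1 ILMN_1683595, -0.67 to 0.074 for MBD2 ILMN_1717195, -0.10 to 0.15 for UHRF1 ILMN_1786065, -0.33 to 0.26 for UHRF2 and -0.058 to 0.018 for ZBTB33. The other 6 probes kept their sign whichever array was left out, and 5 of them under every other setting with a test, although single arrays moved them by over 1.5 times: MBD1 ILMN_2352580 lay between -0.33 and -0.056, MBD2 ILMN_1750395 between 0.15 and 0.43, MBD4 between -0.48 and -0.0084, UHRF1 ILMN_2401352 between -0.55 and -0.0076, ZBTB4 ILMN_2097793 between 0.15 and 0.65 and ZBTB4 ILMN_1795905 between 0.14 and 0.31. The titles give both groups the replicate numbers 1 to 3. The deviations of same-numbered arrays correlated at 0.51, -0.31 and 0.66, positive for numbers 1 and 3 and negative for 2. With 3 arrays per group these values cannot decide whether the numbers pair the arrays. With the replicate block 0 probes were called (1001 at an unadjusted p under 0.05 from limma, beside 550 without the block). Signals near background limit the MBD2, ZBTB38, second UHRF1 and second ZBTB4 probes.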

Other observations

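The MBD3-like genes, germline relatives of MBD2 and MBD3 that lack the methyl-CpG binding domain, were looked at after the other values were seen. Over 7 probes of 5 genes, 2 of 42 signals were detected, beside 38.3% to 40.9% of all probes on an array. Both were on RUNX1 arrays (1 of an MBD3L5 probe and 1 of the MBD3L2 probe). With so few signals this is not read as a difference between the groups, and none of the probes was tested. The brightest of the 42 signals was 140, beside a median over all probes of 114 to 115 on the RUNX1 arrays and 112 to 118 on the MCS arrays.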
